A study of Vaccinium corymbosum with 9 samples.

Results

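Mature fruit of the highbush blueberry was compared with early green fruit, gene by gene, in 6 RNA-seq libraries. The 3 libraries of mature fruit (stage 3) and the 3 libraries of early green fruit (stage 1) came from Vaccinium corymbosum 'Bluecrop' grown in an orchard, with no treatment at either stage, and the labels call the replicates of a stage independent biological replicates. The study centres on the cuticular wax that gives the berry its bloom, with early green fruit as its baseline, and it holds 3 further libraries of fruit at color break, whose values are given beside some genes only for orientation. Fruit is the labelled tissue and no dissection is stated, so skin, flesh, vessels and seeds can all lend RNA to a library. A gene entered the comparison with at least 1 FPKM (fragment counts scaled to transcript length and library size) in at least 3 of the 6 libraries, and 47084 of the 93716 genes in the table did.

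A blueberry grows as a hard green fruit that photosynthesises and fills its seeds, then softens, loses acidity, gains sugar and turns blue. The blue colour comes from anthocyanins, made from phenylalanine through the phenylpropanoid and flavonoid routes and stored in the vacuoles of skin cells. Cuticular wax is built by elongating fatty acids in the endoplasmic reticulum, and the cyclic triterpenoids in it come from oxidosqualene.

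Of the genes that entered, 35122 reached 1 FPKM in all 6 libraries (74.6%), 5040 in the 3 green libraries alone, 990 in the 3 mature libraries alone, and 5932 in some other mix. A gene that entered through 1 stage alone was bound to differ, so counts over such genes describe them and support nothing. Just inside the limit the third-highest library stood at 1.000021 FPKM and just outside at 0.999894 FPKM, and 6729 genes had exactly 3 libraries at the limit or above while 2525 had exactly 2. Deposited estimated counts summed to between 52919289 and 56014561 in the green and between 53708145 and 56402366 in the mature libraries. Correlations of log2 CPM (counts scaled to library size) across genes were 0.973 to 0.974 within green, 0.958 to 0.966 within mature and 0.731 to 0.770 between the stages. In a principal component analysis the stages parted along axis 1 (85.1% of the variance), and axis 2 (5.67%) set mature replicate 2 (72.1) apart from mature replicate 3 (-68.4).

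Over all tested genes, fewer were called higher than lower in mature fruit, but not among genes that reached 1 FPKM in all 6 libraries. With edgeR, taking a change of 2-fold or more whose p after Benjamini-Hochberg adjustment was under 0.05, 4361 genes rose (9.26% of those tested), 7441 fell (15.8%) and 35282 were not called. As a description of genes chosen by their change, those that rose took 9.71% to 10.05% of the counts in green libraries and 30.3% to 31.4% in mature libraries, and the genes that fell took 17.8% to 19.1% in green and 2.67% to 3.09% in mature libraries. Among the 2026 genes above 50 FPKM in their higher stage, 672 rose (33.2%) and 305 fell (15.1%), whereas among the 25181 genes under 5 FPKM, 1467 rose (5.83%) and 4748 fell (18.9%). Of the genes with all 6 libraries at 1 FPKM or more, 3043 rose (8.66%) and 2405 fell (6.85%). Among the 7441 falls 3899 were genes that entered through the green libraries alone. Among the 4361 rises 940 entered through the mature libraries alone. The excess of falls over all tested genes therefore depends on the entry rule. The median log2 change over all tested genes was -0.02 with TMM scaling (factors 1.09 to 1.11 in green and 0.904 to 0.912 in mature libraries) and -0.30 with library totals alone. With library totals alone 23.0% of the calls were rises, against 37.0% with TMM. FPKM values below are not TMM scaled, and log2 changes are. In bulk fruit libraries, fewer cells of a type and less RNA per cell cannot be told apart.

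**Figure D1:**
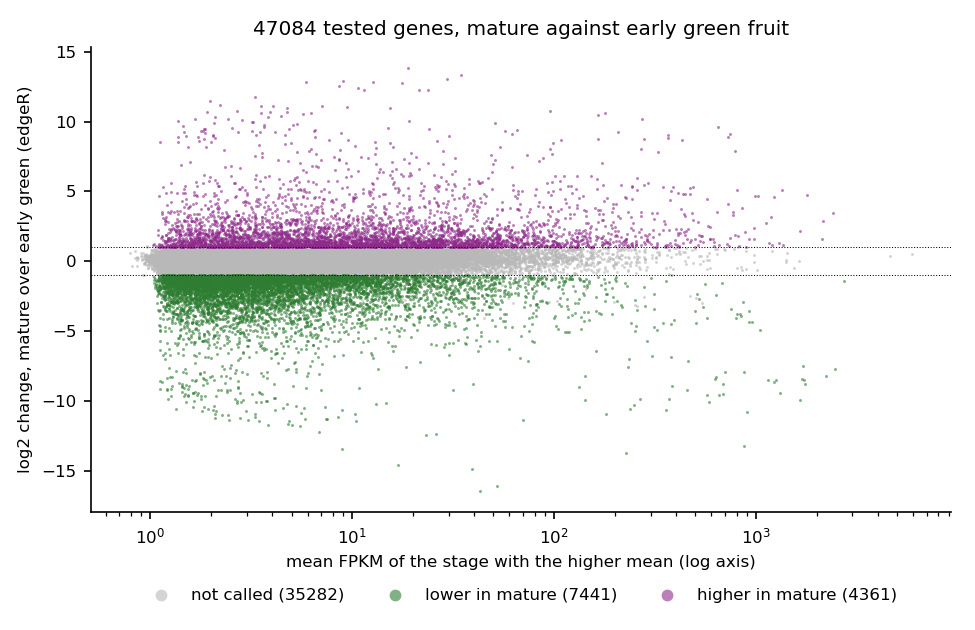
Each point is 1 of the 47084 tested genes, by the mean FPKM of its higher stage (log axis) and its log2 change, mature over early green; dotted lines mark a 2-fold change. The 7441 green points are genes lower in mature fruit, crowded at low FPKM, and the 4361 purple points are genes higher in mature fruit, which make up 33.2% of the genes above 50 FPKM.

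The annotated gene lists differed widely in their shares of calls: 91.5% of the tested flavonoid and anthocyanin genes rose, and 84.2% of the light-harvesting genes fell. The background for any list is 9.26% of genes rising and 15.8% falling.

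**Figure D2:**
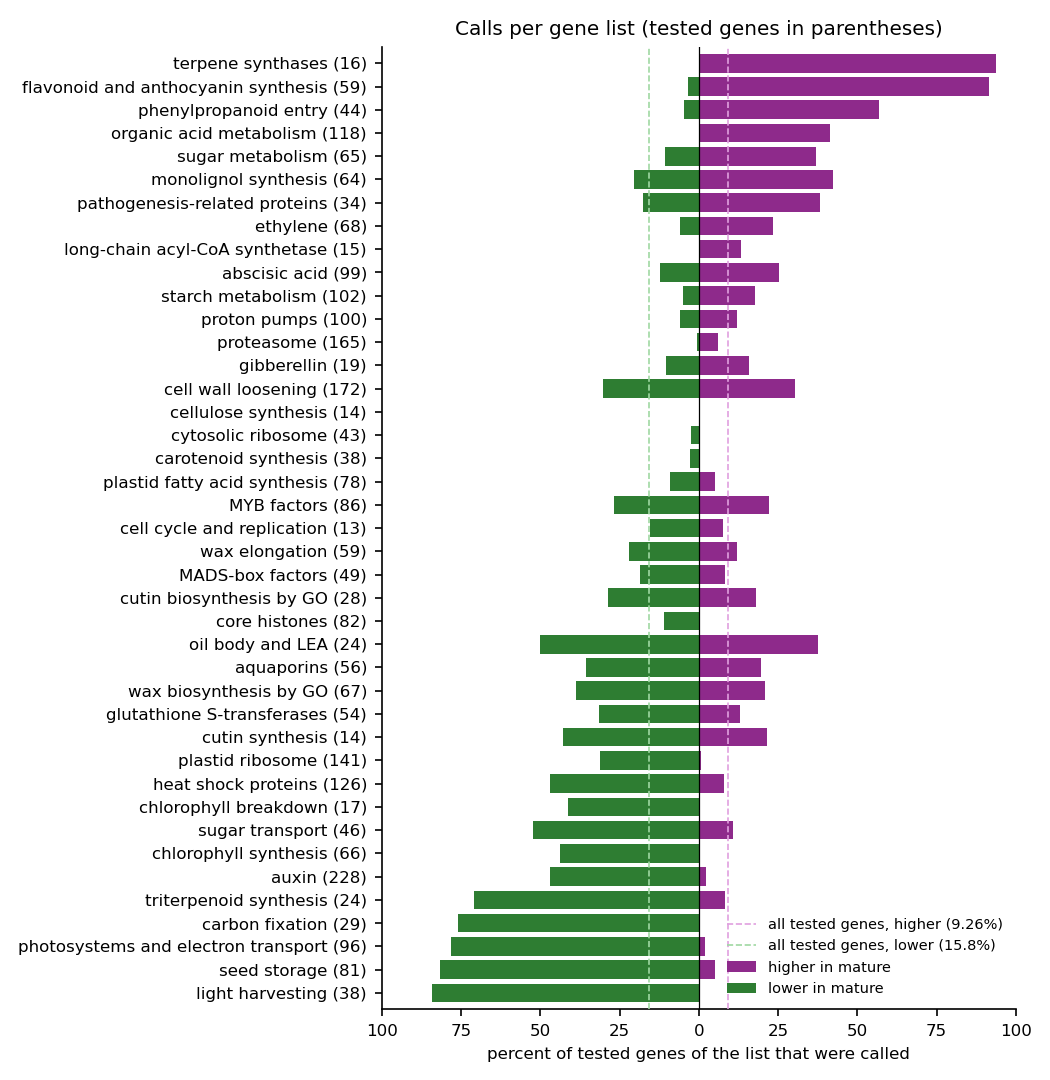
Bars give the percent of tested genes of each list that were called higher (purple, right) or lower (green, left) in mature fruit, for lists of at least 10 tested genes, with the number tested in parentheses; dashed lines mark all tested genes at 9.26% and 15.8%. Terpene synthases stand at 93.8% higher, all of them genes that entered through the mature libraries alone, light-harvesting genes at 84.2% lower, while cell wall loosening genes stand at 30.2% on both sides. Of the 172 cell wall loosening genes 26 entered through the green and 7 through the mature libraries alone.

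The pigment pathway rose at most of its steps, from its entry to the colouring enzymes. Of 44 tested genes at the phenylpropanoid entry, 25 rose and 2 fell (median log2 change 1.57), with 5 falls without mature replicate 3 or with library totals alone; 16 of them entered through the mature libraries alone. Phenylalanine ammonia-lyase, which takes phenylalanine into the pathway, rose in 13 of 15 genes, and its genes summed to 181 ± 17.8 FPKM in green and 633 ± 92.7 in mature fruit (mean ± SD, n = 3, as for all sums below, taken over all genes of a family in the table). Cinnamate 4-hydroxylase, the next enzyme, rose in 5 of 8 genes. Its most abundant riser, VaccDscaff21-augustus-gene-13.24, was at 4.36, 5.18 and 4.89 FPKM in the green and 186, 184 and 151 FPKM in the mature libraries. Every mature library lay above every green one, with a log2 change of 5.43 ± 0.12 (SE; adjusted p = 5.15e-08). 4-Coumarate-CoA ligase, which activates the acid for the branches that follow, rose in 7 of 21 genes and fell in 1.

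Of 59 tested flavonoid and anthocyanin genes 54 rose and 2 fell, with a median log2 change of 4.93 beside -0.02 for all tested genes; 17 of them entered through the mature libraries alone. The list summed to 685, 644 and 628 FPKM in the green and 11035, 11059.5 and 9439 FPKM in the mature libraries. All 12 tested genes of chalcone synthase, the first committed enzyme, rose, and the family summed to 32.7 ± 0.708 and 2426 ± 309.7 FPKM. Flavanone 3-hydroxylase rose in 8 of 8 genes (48.2 ± 2 and 1499.5 ± 158 FPKM), and chalcone isomerase, which closes the ring before it, in 7 of 8. The B-ring hydroxylases set how blue or red the pigment is. Flavonoid 3'-hydroxylase, on the route to cyanidin, rose in all 4 tested genes, from a sum of 12.1 ± 0.269 FPKM in green to 476 ± 63.3 FPKM in mature fruit. Flavonoid 3',5'-hydroxylase, on the route to the bluer delphinidin, rose in 11 of 13, from 442 ± 31.3 to 3590.5 ± 117 FPKM, so it had a higher summed level in both stages. Dihydroflavonol reductase rose in 5 of 5 genes and anthocyanidin synthase, which makes the coloured ion, in 3 of 4 (9.61 ± 0.362 and 1546 ± 169 FPKM).

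One flavonoid 3',5'-hydroxylase gene, VaccDscaff8-augustus-gene-360.23 (scaffold 8, 36046873 to 36051075, + strand; coordinates on the table's scaffolds; the sources used here name no genome build), was the most abundant flavonoid riser and among the 5 most abundant rises of all genes. It stood at 373, 342 and 330.3 FPKM in the green libraries and at 2167, 2211 and 2088 FPKM in the mature ones. The mature libraries were all several times above the green ones, a log2 change of 2.88 ± 0.05 (SE; adjusted p = 1.09e-08), and color break fruit was at 2094 ± 38.6 FPKM. The pigment list was lowest in mature replicate 3 for 52 of its 54 risers, yet that library still summed to 9428 FPKM over them, against 612 to 666 FPKM in the green libraries.

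The 4 largest rises outside the lists among genes with a named protein and at least 10 FPKM were all annotated as UDP-glucose:flavonoid 3-O-glucosyltransferase, the enzyme type that makes anthocyanidins stable by adding glucose. The first, VaccDscaff39-processed-gene-2.0, was at 0.902, 0.86 and 0.751 FPKM in green and 389.8, 402 and 311 FPKM in mature libraries (log2 change 9.02 ± 0.15, adjusted p = 4.04e-08). It entered through the mature libraries alone and was picked by its change, so it had to differ. The others, VaccDscaff38-augustus-gene-9.29, VaccDscaff37-augustus-gene-300.34 and VaccDscaff6-augustus-gene-420.36, rose by 8.81, 8.76 and 8.75 on the same scale. All 7 tested genes of their KEGG ortholog rose, from a sum of 19 ± 1.58 to 1348 ± 152 FPKM. The single tested gene listed as anthocyanidin 3-O-glucosyltransferase was called lower (log2 change -1.43) and had entered through the green libraries alone. The fifth of the largest rises, VaccDscaff1338-augustus-gene-0.7, is named kirola-like after a kiwifruit protein (log2 change 8.21 ± 0.27, adjusted p = 6.45e-07).

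MYB factors regulate many pathways, and as a list they went both ways: of 86 tested genes 19 rose and 23 fell. Of these 86 genes 17 entered through the green and 15 through the mature libraries alone. At a mean of at least 5 FPKM 11 rose and 4 fell, and the median log2 change turned from -0.23 to 0.10. The gene annotated as transcription factor MYB1, VaccDscaff1486-snap-gene-0.3, was at 0, 0.0841 and 0.0821 FPKM in the green and 102, 102 and 80.7 FPKM in the mature libraries. The green libraries held 0, 5 and 4 estimated counts of it, so the size of the rise rests on few counts. This gene entered through the mature libraries alone and so had to differ. The fitted rise was 10.78 ± 0.33 on the log2 scale (adjusted p = 7.01e-07), and color break fruit was at 135 ± 17.3 FPKM. In the other direction VaccDscaff4-augustus-gene-358.29 fell, with a log2 change of -1.64 ± 0.09 (SE; adjusted p = 1.88e-06). The proanthocyanidin branch, which makes the astringent tannins of unripe fruit, had 7 tested genes, of which 2 rose and 3 fell, with a median of -0.40 that was 0.02 without green replicate 3; the anthocyanidin reductase gene VaccDscaff22-snap-gene-38.62 fell from 22.6, 21.5 and 22.5 FPKM to 8.27, 8.43 and 7.24 FPKM (log2 change -1.22 ± 0.07, adjusted p = 2.44e-06).

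Of 64 tested lignin precursor genes 27 rose and 13 fell; 12 entered through the green libraries alone, and at a mean of at least 5 FPKM 19 rose and 0 fell. All 10 tested caffeoyl-CoA O-methyltransferase genes rose, from a summed 155 ± 5.43 FPKM in green to 2232 ± 252 FPKM in mature fruit; this enzyme type methylates both lignin precursors and, in some plants, flavonoids and anthocyanins. Its leading gene, VaccDscaff32-processed-gene-21.11, went from 73.6, 70.2 and 66.7 FPKM to 878, 905 and 759 FPKM (log2 change 3.85 ± 0.08, adjusted p = 2.21e-08). Of the other enzymes, ferulate 5-hydroxylase fell in 3 of 4 tested genes and shikimate hydroxycinnamoyltransferase (HCT) in 7 of 12, with 2 rising. The HCT gene VaccDscaff4-augustus-gene-276.27 was at 6.68, 7.54 and 6.41 FPKM in green fruit and had no count in any mature library, so it was at least 183-fold lower in mature fruit (against a floor of 3 counts a library).

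Glutathione S-transferases, some of which carry anthocyanins to the vacuole, had 7 rises and 17 falls among 54 tested genes; 5 entered through the green and 5 through the mature libraries alone. Their summed level was nonetheless 803 ± 6.81 FPKM in green and 1615 ± 164 FPKM in mature fruit. One gene, VaccDscaff13-augustus-gene-26.16, held 40.2% of the mature sum and 0.119% of the green sum. It was at 0.557, 1.16 and 1.16 FPKM in green and 684, 719 and 546 FPKM in mature libraries, with no overlap (log2 change 9.64 ± 0.32, adjusted p = 4.08e-06). The most abundant faller, VaccDscaff72-augustus-gene-0.26, was at 118, 107 and 109 FPKM in green and 37.3, 35.1 and 34.6 FPKM (log2 change -1.38 ± 0.06, adjusted p = 4.31e-07).

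The genes of cuticular wax, the study's subject, had no common direction. Of 59 tested genes of very-long-chain fatty acid elongation 7 rose, 13 fell and 39 were not called; this is 11.9% higher and 22% lower, beside 9.26% and 15.8% of all genes. Every call was in 3-ketoacyl-CoA synthase, the enzyme that sets chain length, with 7 of 39 genes higher and 13 lower. Of these 39 genes 7 entered through the green and 3 through the mature libraries alone. At a mean of at least 5 FPKM the elongation list had 5 rises and 7 falls. The other 3 elongase enzymes, ketoacyl-CoA reductase, hydroxyacyl-CoA dehydratase and enoyl-CoA reductase, had no call in 11, 4 and 5 tested genes. The synthase genes summed to 407 ± 11.5 FPKM in green and 537 ± 64.6 FPKM in mature fruit. The leading riser, VaccDscaff24-augustus-gene-329.18 (scaffold 24, 32890614 to 32896905, + strand), was at 45.8, 49.7 and 49.3 FPKM in green and 155, 149.9 and 119 FPKM in mature libraries. Its stages did not overlap, with a log2 change of 1.81 ± 0.10 (SE; adjusted p = 5.01e-06), and it alone held 26.3% of the mature sum. The 3 synthase genes that entered through the mature libraries alone, and so had to differ, were picked after their values were seen. VaccDscaff20-augustus-gene-127.40, VaccDscaff28-augustus-gene-219.27 and VaccDscaff19-snap-gene-130.30 had log2 changes of 9.45, 7.90 and 8.27. Their means were 0.037, 0.134 and 0.035 FPKM in green and 24.0, 28.1 and 10.3 FPKM in mature fruit. The leading faller, VaccDscaff20-augustus-gene-60.39, went the other way, from 14, 15.2 and 14.3 FPKM to 1.23, 0.988 and 0.683 FPKM (log2 change -3.64 ± 0.19, adjusted p = 1.96e-06).

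CER1, which turns very-long-chain aldehydes into the alkanes of wax, was represented by VaccDscaff37-augustus-gene-293.17. It stood at 52.9, 58.3 and 57.5 FPKM in green and 114, 109.9 and 95.9 FPKM in mature libraries, a change of 1.18 ± 0.07 on the log2 scale (adjusted p = 3.52e-06); with library totals alone the estimate was 0.90, under the 2-fold limit. By GO term, of 67 tested wax biosynthesis genes 14 rose and 26 fell, and of 28 cutin biosynthesis genes 5 rose and 8 fell. Of the 67 wax genes 12 entered through the green and 7 through the mature libraries alone. At a mean of at least 5 FPKM 8 GO wax genes rose and 8 fell. The median of the GO wax list turned from -0.22 to 0.15 at a mean of at least 5 FPKM, and that of the GO cutin list from 0.10 to -0.18 with library totals alone. The most abundant wax faller by GO was VaccDscaff42-processed-gene-53.6, which also has a heme-binding term (log2 change -4.13 ± 0.48, adjusted p = 0.00085), and the most abundant cutin faller by GO was VaccDscaff51-augustus-gene-3.22, a long-chain fatty acid-CoA ligase gene by its GO term (log2 change -2.95 ± 0.16, adjusted p = 2.89e-06). Glycerol-3-phosphate acyltransferase, which assembles cutin and suberin monomers, rose in 3 and fell in 6 of 14 tested genes, of which 6 entered through the green libraries alone. At a mean of at least 5 FPKM the counts were 2 and 0, and the median log2 change went from -0.29 to 0.50. Among these genes VaccDscaff17-augustus-gene-63.26 rose (log2 change 2.27 ± 0.13, adjusted p = 2.38e-06) and VaccDscaff51-augustus-gene-3.26 fell (log2 change -3.43 ± 0.54, adjusted p = 0.00194).

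Plastid fatty acid synthesis rose in 4 and fell in 7 of 78 tested genes, 8 of which entered through the green libraries alone, with sums of 564 ± 7.41 and 598 ± 17.9 FPKM. Without green replicate 3 the rises were 7, with limma on log2(FPKM + 1) there were none, and at a mean of at least 5 FPKM there was no rise and no fall. Among the list VaccDscaff43-snap-gene-57.35, a fatty acyl-ACP thioesterase gene by KEGG ortholog, fell (log2 change -3.23 ± 0.17, adjusted p = 1.43e-06), and VaccDscaff9-snap-gene-237.26, a ketoacyl-ACP reductase gene, rose (log2 change 1.13 ± 0.08, adjusted p = 6.93e-06). Long-chain acyl-CoA synthetase rose in 2 of 15 genes, the leading one being VaccDscaff38-augustus-gene-282.41 (log2 change 1.01 ± 0.05, adjusted p = 1.3e-06). Of 2 tested ABCG transporter genes 1 was called, VaccDscaff1517-processed-gene-0.1, which fell at the edge of the 2-fold limit (log2 change -1.01 ± 0.26, adjusted p = 0.00963). The synthetase gene lost its call without mature replicate 1 (0.9963) or 2 (0.9829), and the transporter gene without green replicate 3 (-0.79), mature replicate 1 (-0.90) or mature replicate 2 (-0.9947). The transporter gene was also not called with DESeq2 (-0.9994), median-of-ratios scaling (-0.9982), the replicate block (-0.9915), no filter (-0.92) or limma on log2(FPKM + 1) (-0.75). The synthetase list had 1 rise without green replicate 1 or mature replicate 2, and no rise without mature replicate 1, with library totals alone or at a mean of at least 5 FPKM. The reductase gene was at 0.86 with library totals alone.

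All 11 tested oxidosqualene cyclase genes, which make the skeletons of wax triterpenoids and sterols, fell, and they summed to 83.5 ± 6.03 FPKM in green and 12.5 ± 3.41 FPKM in mature fruit; 7 entered through the green libraries alone. The most abundant, VaccDscaff20-snap-gene-210.31, named dammarenediol II synthase-like, fell from 20.7, 22.6 and 21.3 FPKM to 3.16, 3.75 and 1.73 FPKM (log2 change -2.64 ± 0.28, adjusted p = 0.000338). Squalene synthase and epoxidase, upstream, rose in 2 and fell in 6 of 13 genes. Of 16 tested terpene synthase genes 15 rose, all 15 of which had entered through the mature libraries alone. The sum was 8.98, 7.07 and 7.35 FPKM in the green and 215, 237 and 217 FPKM in the mature libraries. The leading gene, VaccDscaff35-snap-gene-88.44, whose KEGG ortholog is a germacrene D synthase, was at 0.0347, 0.0715 and 0.0733 FPKM in green and 49.4, 54.5 and 49.2 FPKM in mature fruit (log2 change 9.93 ± 0.18, adjusted p = 2.56e-08).

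Photosynthesis genes fell in most families. Of 38 tested light-harvesting genes 32 fell and none rose, with a median log2 change of -1.98; 9 entered through the green libraries alone. The 3 tested genes of LHCB1, a main antenna protein of photosystem II, were an exception within the list: none was called, and they summed to 78.3 ± 3.01 FPKM in green and 79.6 ± 6.71 FPKM in mature fruit. CP24, a minor antenna protein, fell in all 3 tested genes; VaccDscaff2-snap-gene-374.37 was at 49, 49.5 and 47.7 FPKM in green and 11.4, 7.99 and 8.37 FPKM in mature libraries (log2 change -2.14 ± 0.13, adjusted p = 5.33e-06). Photosystem subunits fell in 58 of 67 tested genes, 14 of which entered through the green libraries alone, with sums of 2025 ± 37.5 and 511 ± 34.6 FPKM. Electron carriers such as plastocyanin and ferredoxin fell in 17 of 29 tested genes, 3 of which entered through the green libraries alone. The most abundant of these fallers, VaccDscaff4-augustus-gene-176.15, encodes an oxygen-evolving complex subunit by KEGG ortholog and went from 170.4, 169.7 and 173 FPKM to 47.5, 44.1 and 42.9 FPKM (log2 change -1.68 ± 0.05, adjusted p = 9.9e-08).

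Of 29 tested genes of Rubisco small subunit and Calvin cycle enzymes 22 fell, none rose, and the median was -3.69; 11 entered through the green libraries alone. The Rubisco small subunit gene VaccDscaff25-augustus-gene-297.30 (scaffold 25, 29766169 to 29768920, + strand) was at 519, 487 and 494 FPKM in green libraries and 37.7, 32.2 and 34.4 FPKM in mature libraries. All mature libraries were far below the green ones, a log2 change of -3.59 ± 0.07 (SE; adjusted p = 1.2e-08). Sedoheptulose bisphosphatase and phosphoribulokinase, which regenerate the CO2 acceptor, each fell in all 4 tested genes.

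Chlorophyll synthesis fell in 29 of 66 tested genes and rose in none, and 14 of the 66 entered through the green libraries alone. At a mean of at least 5 FPKM 7 fell, and with limma on log2(FPKM + 1) 15 fell. The 29 falls held every tested gene of some enzymes or subunits: protochlorophyllide reductase in 4 of 4 genes, the I subunit of magnesium chelatase in 3 of 3 and its D subunit in 3 of 3. The most abundant faller whose stages lay apart, VaccDscaff10-augustus-gene-174.12, encodes the oxidative cyclase of the pathway by KEGG ortholog and lay at the 2-fold limit (log2 change -1.0039 ± 0.10, adjusted p = 5.22e-05). Its estimate was between -0.97 and -0.96 without green replicate 1, green replicate 3, mature replicate 2 or mature replicate 3, just under the limit. Of 17 tested chlorophyll breakdown genes 7 fell and none was called higher; 5 entered through the green libraries alone. At a mean of at least 5 FPKM 3 fell, and the median log2 change turned from -0.88 to 0.53. Chlorophyll b reductase (NYC1) fell in all 4 genes, for example VaccDscaff69-augustus-gene-6.38 (log2 change -2.10 ± 0.16, adjusted p = 1.15e-05), and chlorophyllase in all 3. Pheophorbide a oxygenase, which opens the ring and removes the green colour, was called in none of 4 genes, and it summed to 109.9 ± 3.78 FPKM in green and 165 ± 5.04 FPKM in mature fruit, with a median log2 change of 0.79.

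Other plastid functions differed in how far they went. Plastid ribosomal proteins fell in 44 and rose in 1 (2 without green replicate 1) of 141 tested genes, for example VaccDscaff18-processed-gene-364.3 (log2 change -1.25 ± 0.11, adjusted p = 2.79e-05), whereas ribosomal proteins described as 40S or 60S, of the cytosol, had 1 fall, VaccDscaff825-augustus-gene-0.5 (log2 change -1.15 ± 0.29, adjusted p = 0.00935), and no rise among 43. That fall rested on low levels, and it was -0.90 without green replicate 3 and -0.95 without mature replicate 3, under the limit. Of the 141 plastid ribosomal protein genes 15 entered through the green libraries alone, and at a mean of at least 5 FPKM 22 fell. Carotenoid synthesis, which also takes place in plastids and supplies abscisic acid, had 1 fall and no rise among 38 tested genes. That gene, VaccDscaff26-snap-gene-8.19, a lycopene epsilon-cyclase by KEGG ortholog, directs the pathway to lutein, a leaf pigment (log2 change -2.12 ± 0.17, adjusted p = 1.34e-05).

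**Figure D3:**
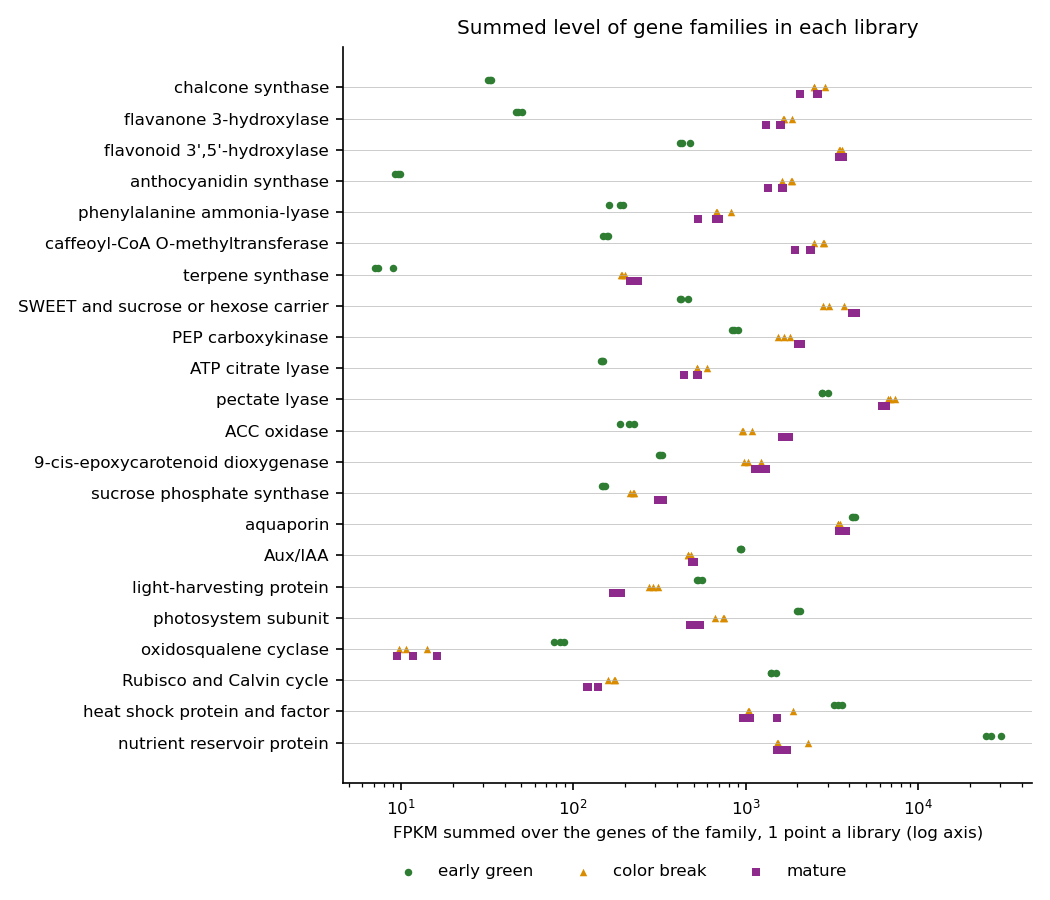
Each point is the FPKM summed over a gene family in 1 library (log axis), with early green as circles, color break as triangles and mature as squares. Chalcone synthase stands at 32.7 ± 0.708 FPKM in green and 2426 ± 309.7 FPKM in mature fruit, and seed storage (nutrient reservoir) genes at 27124 ± 2736 and 1605 ± 118 FPKM.

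Of 46 tested sugar carrier genes 5 rose and 24 fell, with a median log2 change of -1.22 and 18 genes that entered through the green libraries alone, yet the list summed to 416, 422 and 461 FPKM in the green and 4199.7, 4128 and 4394 FPKM in the mature libraries. At a mean of at least 5 FPKM 4 genes rose and 2 fell, and the median turned to 0.07. All 5 rises were SWEET transporters, which let sugars pass membranes down their gradient, and 19 of 31 tested SWEET genes fell. In mature fruit 4 SWEET genes stood above 100 FPKM and held 99.1% of the family's sum, and no SWEET gene stood above 100 FPKM in green fruit. The first of them, VaccDscaff102-augustus-gene-4.44 (scaffold 102, 401978 to 406354, - strand), was at 70.2, 79.4 and 83.4 FPKM in green libraries and 1775, 1736 and 1841 FPKM in mature libraries, and at 1375 ± 211 FPKM at color break. The stages did not overlap, the gene had a log2 change of 4.78 ± 0.07 (SE; adjusted p = 7.05e-09), and it was among the 5 most abundant rises of all genes. The SWEET gene VaccDscaff16-augustus-gene-126.23 fell, from 7.51, 9.5 and 11.1 FPKM to 0.451, 1.82 and 0.513 FPKM (log2 change -3.06 ± 0.54, adjusted p = 0.00341). Sucrose and proton symporters of the SUC type, 15 tested genes, had no rise and 5 falls.

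**Figure D4:**
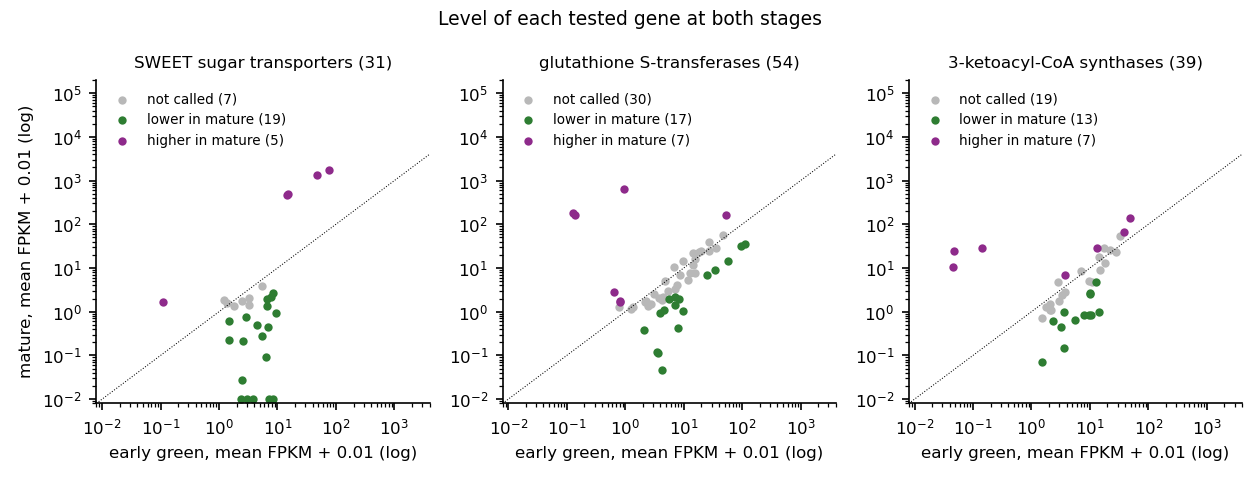
Each point is 1 tested gene, with its mean FPKM in early green fruit (x) and in mature fruit (y), both on log axes after adding 0.01; the dotted line marks equal levels. Of 31 SWEET genes 5 rose and 19 fell, of 54 glutathione S-transferases 7 rose and 17 fell, and of 39 3-ketoacyl-CoA synthases 7 rose and 13 fell, and in each family the gene with the highest mature level is a riser.

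Sugar metabolism leaned upward. Of 65 tested genes 24 rose and 7 fell (14 rises and 7 falls with library totals alone). Of the 65 genes 6 entered through the green and 1 through the mature libraries alone. At a mean of at least 5 FPKM 9 rose and 0 fell. Sucrose phosphate synthase and sucrose phosphatase, the enzymes of sucrose synthesis, rose in 7 of 11 genes, from 149 ± 3.22 to 319 ± 12.2 FPKM in sum. The synthase gene VaccDscaff38-augustus-gene-40.23 was at 53.8, 51.8 and 50.4 FPKM in green and 114, 111 and 122 FPKM in mature libraries (log2 change 1.41 ± 0.05, adjusted p = 1.45e-07). Invertase, which splits sucrose into the hexoses that berries store, rose in 7 and fell in 4 of 15 tested genes and summed to 1472 ± 62.5 and 2256 ± 37 FPKM. The fructokinase gene VaccDscaff4-augustus-gene-144.36 fell (log2 change -2.87 ± 0.23, adjusted p = 1.49e-05).

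Starch genes had 18 rises and 5 falls among 102 tested genes, but 10 rises and 16 falls with library totals alone, and 8 falls without mature replicate 1, 2 or 3. Alpha-amylase, which breaks starch down, rose in 9 of 11 genes, from a sum of 129 ± 1.92 to 299 ± 3.88 FPKM. Its leading gene, VaccDscaff12-augustus-gene-92.40, was at 46.7, 48 and 48.2 FPKM in green and 129, 131 and 130.5 FPKM in mature libraries (log2 change 1.71 ± 0.04, adjusted p = 3.49e-08). Granule-bound starch synthase, which makes amylose, had 2 falls among 6 tested genes, led by VaccDscaff29-snap-gene-27.44 (log2 change -2.75 ± 0.29, adjusted p = 0.000193).

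Organic acid enzymes rose more often than genes in general. Of 118 tested genes 49 rose, or 41.5%, and none fell (38 rises, with 3 falls, when library totals alone were used, and 1 fall without mature replicate 1, 2 or 3). PEP carboxykinase, which draws on malate and oxaloacetate to form sugar precursors, rose in 7 of 8 genes and summed to 867 ± 35.4 FPKM in green and 2061 ± 43.4 FPKM in mature fruit. The most abundant, VaccDscaff41-augustus-gene-12.13, was at 288, 278 and 271 FPKM in green and 607, 623 and 621 FPKM in mature libraries, a change of 1.40 ± 0.04 on the log2 scale (adjusted p = 4.29e-08). PEP carboxylase, which makes oxaloacetate in the opposite sense, had no call among 11 genes. ATP citrate lyase, which splits citrate to supply acetyl-CoA to the cytosol for flavonoids and waxes, rose in 17 of 20 genes, from 148 ± 2 to 497 ± 49.5 FPKM in sum. Citrate synthase rose in 4 of 5 genes, mitochondrial malate dehydrogenase in 7 of 18 and NADP-malic enzyme in 7 of 16. Proton pumps, which acidify the vacuole and the wall, had 12 rises and 6 falls among 100, and 10 of each with library totals alone; the P-type pump gene VaccDscaff17-augustus-gene-253.34 rose (log2 change 1.45 ± 0.12, adjusted p = 3.76e-05) and the vacuolar ATPase gene VaccDscaff12-augustus-gene-44.31 fell (log2 change -1.24 ± 0.07, adjusted p = 2.98e-06).

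Cell wall genes changed often and in both directions. Of 172 tested genes 52 rose and 52 fell, against 9.26% and 15.8% of all genes. Of the 172 genes 26 entered through the green and 7 through the mature libraries alone. At a mean of at least 5 FPKM 35 rose and 21 fell. Pectate lyases, which cut the pectin between cells, summed to 2846 ± 125 FPKM in green and 6304 ± 199 FPKM in mature fruit, with 6 rises and 4 falls among 19 tested genes. The pectate lyase gene VaccDscaff17-augustus-gene-294.21 was at 475, 408 and 403 FPKM in green and 1659, 1584 and 1718 FPKM in mature libraries. Its stages stood well apart, with a log2 change of 2.20 ± 0.07 (SE; adjusted p = 1.63e-07), and color break fruit was at 2077 ± 76.7 FPKM. Polygalacturonases, another class of pectin-cutting enzymes, had 2 rises and 2 falls among 11, and summed to 134 ± 5.51 and 158 ± 10.5 FPKM. Pectinesterases, which prepare pectin for both, fell in 22 and rose in 7 of 43 genes.

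Expansins, which loosen the bonds between wall polymers, rose in 22 and fell in 7 of 45 tested genes, with sums of 3676 ± 114 and 6594 ± 338 FPKM. Among the expansin fallers VaccDscaff18-augustus-gene-331.22 was the most abundant, at 116, 112 and 108 FPKM in green and 35.7, 32.9 and 28.1 FPKM in mature libraries (log2 change -1.54 ± 0.09, adjusted p = 2.38e-06). Endoglucanases had 2 rises and 4 falls among 13 genes while their sum was 563 ± 29.9 FPKM in green and 2378 ± 114 FPKM in mature fruit. Cellulose synthase had no call among 14 tested genes in the main edgeR fit or with DESeq2. In the main fit 10 were lower at an adjusted p under 0.05 but by less than 2-fold. Its sums were 197 ± 0.933 and 133 ± 2.02 FPKM, and with library totals alone 2 genes fell. In edgeR 1 gene fell without mature replicate 1, with the replicate block or at a mean of at least 5 FPKM. With limma on log2(FPKM + 1) 1 gene fell as well. The gene with the highest mature level of all risers, VaccDscaff16-augustus-gene-218.19 (scaffold 16, 21803491 to 21808331, + strand), is annotated as an extracellular hydrolase with the GO term cell wall organization. It was at 265, 263 and 249.6 FPKM in green and 2431, 2407 and 2382 FPKM in mature libraries, and the 3 libraries of each stage lay close together (log2 change 3.47 ± 0.04, adjusted p = 1.33e-09).

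Aquaporins, the water channels of membranes, went both ways: of 56 tested genes 11 rose and 20 fell (7 and 23 with library totals alone). Of the 56 genes 9 entered through the green libraries alone, and at a mean of at least 5 FPKM 8 rose and 13 fell. Plasma membrane types (PIP) rose in 9 and fell in 5 of 23 tested genes, and VaccDscaff23-augustus-gene-103.24 was at 121, 119.7 and 124 FPKM in green and 419.9, 391 and 455 FPKM in mature libraries (log2 change 2.05 ± 0.06, adjusted p = 6.85e-08). Tonoplast types (TIP) rose in 2 and fell in 5 of 13, with sums of 1848 ± 98.7 and 875 ± 50.8 FPKM. NIP types, which carry small solutes, fell in 10 of 13 genes and rose in none. The TIP gene VaccDscaff13-augustus-gene-192.29 fell from 316, 337 and 386 FPKM to 9.43, 3.95 and 26.6 FPKM. Its mature libraries differed among themselves, with replicate 3 highest and replicate 2 lowest, as in the sum of the seed storage fallers described next. The change was -4.45 ± 0.82 on the log2 scale (adjusted p = 0.00849). The part of seed RNA in this fall was not tested.

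Seed storage genes fell from a high level. Of 81 tested genes with the GO term nutrient reservoir activity 66 fell and 4 rose, with a median log2 change of -7.72; 30 entered through the green libraries alone. The list took 4.99% ± 0.458 of the counts in green and 0.269% ± 0.0267 in mature libraries. In FPKM the 66 fallers summed to 24631, 26179 and 29943 in the green libraries and to 264, 179 and 413 in the mature ones. Within mature fruit, replicate 3 was the highest library for 43 of these genes and replicate 2 the lowest for 42. The most abundant, VaccDscaff43-augustus-gene-40.55, was at 2254, 2445 and 2699 FPKM in green and 7.75, 1.81 and 19.8 FPKM in mature libraries. The stages lay far apart although the mature libraries differed widely among themselves, and the change was -7.72 ± 1.11 on the log2 scale (adjusted p = 0.00365). Another gene with the same protein description, VaccDscaff47-processed-gene-159.4, had a log2 change of -8.19 ± 1.09 (SE; adjusted p = 0.00272). Leaving the seed storage genes out of the fit left 4353 genes higher and 7385 lower.

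Some genes under that GO term rose. The most abundant of them, VaccDscaff14-augustus-gene-315.39, was at 26.6, 29.3 and 27.8 FPKM in green and 779.7, 819.7 and 824 FPKM in mature libraries. It rose in all 3 mature libraries by a similar amount, a log2 change of 5.11 ± 0.05 (SE; adjusted p = 1.45e-09). Oil body and late embryogenesis abundant (LEA) proteins, which accumulate in maturing seeds and under water loss, fell in 12 and rose in 9 of 24 tested genes. Of the 24 genes 5 entered through the green libraries alone. The LEA gene VaccDscaff42-augustus-gene-192.39 fell from 245, 296 and 301 FPKM to 18.8, 6.46 and 49.9 FPKM (log2 change -3.23 ± 0.80, adjusted p = 0.0227), with the same order of the mature replicates. Without green replicate 1, 2 or 3 or mature replicate 1 that call was lost (adjusted p = 0.0552 to 0.0827). The LEA gene VaccDscaff156-augustus-gene-0.25 rose (log2 change 2.79 ± 0.14, adjusted p = 4.67e-06). The MADS-box gene annotated as AGL11, which in Arabidopsis (as SEEDSTICK) specifies ovules and seeds, was VaccDscaff2-augustus-gene-218.35, and it fell from 21.3, 25.8 and 31.5 FPKM to 0.64, 2.83 and 0.436 FPKM (log2 change -4.05 ± 0.66, adjusted p = 0.00323). Its mature replicate 2 was highest and replicate 3 lowest, unlike the order in most of the seed storage fallers. Over all 49 tested MADS-box genes 9 fell (18.4%) and 4 rose (8.16%), near the 15.8% and 9.26% of all genes. Of the 49 genes 7 entered through the green and 2 through the mature libraries alone. Among the rises was VaccDscaff28-augustus-gene-145.15, annotated as MADS1 (log2 change 1.71 ± 0.27, adjusted p = 0.000822).

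Other abundant fallers have no annotated role. A pair of single-exon gene models with the same protein description, VaccDscaff932-processed-gene-0.0 and VaccDscaff1049-processed-gene-0.1, carry no GO term or KEGG ortholog. The first was at 1538, 1723 and 1962 FPKM in green and 3.73, 1.54 and 4.6 FPKM in mature libraries. It had a log2 change of -8.79 ± 0.44 (SE; adjusted p = 4.51e-05), and the second fell as well (log2 change -8.47 ± 0.36, adjusted p = 1.64e-05). The faller with the highest green level, VaccDscaff17-augustus-gene-30.35, is also unannotated and kept a high level in both stages, at 2528, 2735 and 2943 FPKM in green and 927, 709 and 919 FPKM in mature libraries (log2 change -1.43 ± 0.12, adjusted p = 8.27e-05). An unannotated gene among the 5 most abundant rises, VaccDscaff5-processed-gene-76.14, was at 858, 798 and 814 FPKM in green and 2509, 2024 and 1827 FPKM in mature libraries (log2 change 1.62 ± 0.12, adjusted p = 3.89e-05).

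Of 228 tested auxin genes 107 fell, 5 rose and 116 were not called (median -0.97), and 52 entered through the green libraries alone; at a mean of at least 5 FPKM 37 fell and 3 rose. Aux/IAA repressors, which auxin itself induces in many tissues, fell in 44 of 66 tested genes, and VaccDscaff17-augustus-gene-348.31 was at 51.6, 52.2 and 54.6 FPKM in green and 8.17, 14.3 and 9.92 FPKM in mature libraries (log2 change -2.03 ± 0.20, adjusted p = 0.000218). YUCCA, the last enzyme of auxin synthesis, fell in 7 of 10 genes, auxin influx carriers in 6 of 10, and ARF transcription factors in 20 of 54, with no rise in any of the 3 families. TIR1-type auxin receptors had no call among 21 genes. The only auxin list risers were 5 of 52 SAUR genes, led by VaccDscaff12-processed-gene-26.1 (log2 change 1.69 ± 0.13, adjusted p = 1.06e-05).

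Of 99 tested abscisic acid genes 25 rose and 12 fell, and the median log2 change turned from 0.15 to -0.13 with library totals alone. Of these 99 genes 7 entered through the green and 7 through the mature libraries alone. At a mean of at least 5 FPKM 17 rose and 4 fell. NCED, the rate-limiting enzyme of synthesis, rose in 7 and fell in 3 of 10 tested genes, 3 of which entered through the mature libraries alone, from a sum of 322 ± 5.8 to 1212 ± 85.3 FPKM. The NCED gene VaccDscaff19-processed-gene-310.5 was at 121, 122 and 119 FPKM in green and 531, 561 and 632 FPKM in mature libraries, without overlap (log2 change 2.5035 ± 0.07, adjusted p = 4.57e-08). ABA 8'-hydroxylase, the main breakdown enzyme, was higher in all 4 tested genes, which entered through the mature libraries alone and so had to differ (1.86 ± 0.675 and 43 ± 7.26 FPKM). In signalling, PYL receptors fell in 5 of 17 genes, for example VaccDscaff40-augustus-gene-196.22 (log2 change -1.23 ± 0.07, adjusted p = 2.21e-06), and PP2C phosphatases, which those receptors inhibit, rose in 7 of 23.

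Of 68 tested ethylene genes 16 rose and 4 fell (2 falls without green replicate 2). Of these 68 genes 5 entered through the green and 7 through the mature libraries alone. At a mean of at least 5 FPKM 6 rose and 0 fell. ACC oxidase, which makes ethylene, rose in 5 of 9 tested genes, with sums of 188, 210.4 and 226 FPKM in the green and 1625, 1651 and 1789 FPKM in the mature libraries. The leading gene, VaccDscaff191-snap-gene-1.61 (scaffold 191, 123249 to 124548, + strand), was at 93.8, 86.5 and 94.8 FPKM in green and 738, 758 and 812 FPKM in mature libraries, and at 453 ± 40.5 FPKM at color break. All mature libraries were above all green ones, a log2 change of 3.32 ± 0.06 (SE; adjusted p = 1.08e-08). Of 55 tested signalling genes 8 rose and 3 fell, the most abundant faller being VaccDscaff29-snap-gene-197.22, a CTR1-type kinase gene at the 2-fold limit (log2 change -1.0001 ± 0.12, adjusted p = 0.000129); without green replicate 1 or 2 or mature replicate 1 it was between -0.98 and -0.90. Gibberellin genes had 3 rises and 2 falls among 19, with VaccDscaff511-augustus-gene-0.11, a gibberellin 2-oxidase gene by KEGG ortholog, which inactivates the hormone, among the rises (log2 change 1.36 ± 0.23, adjusted p = 0.00121).

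**Figure D5:**
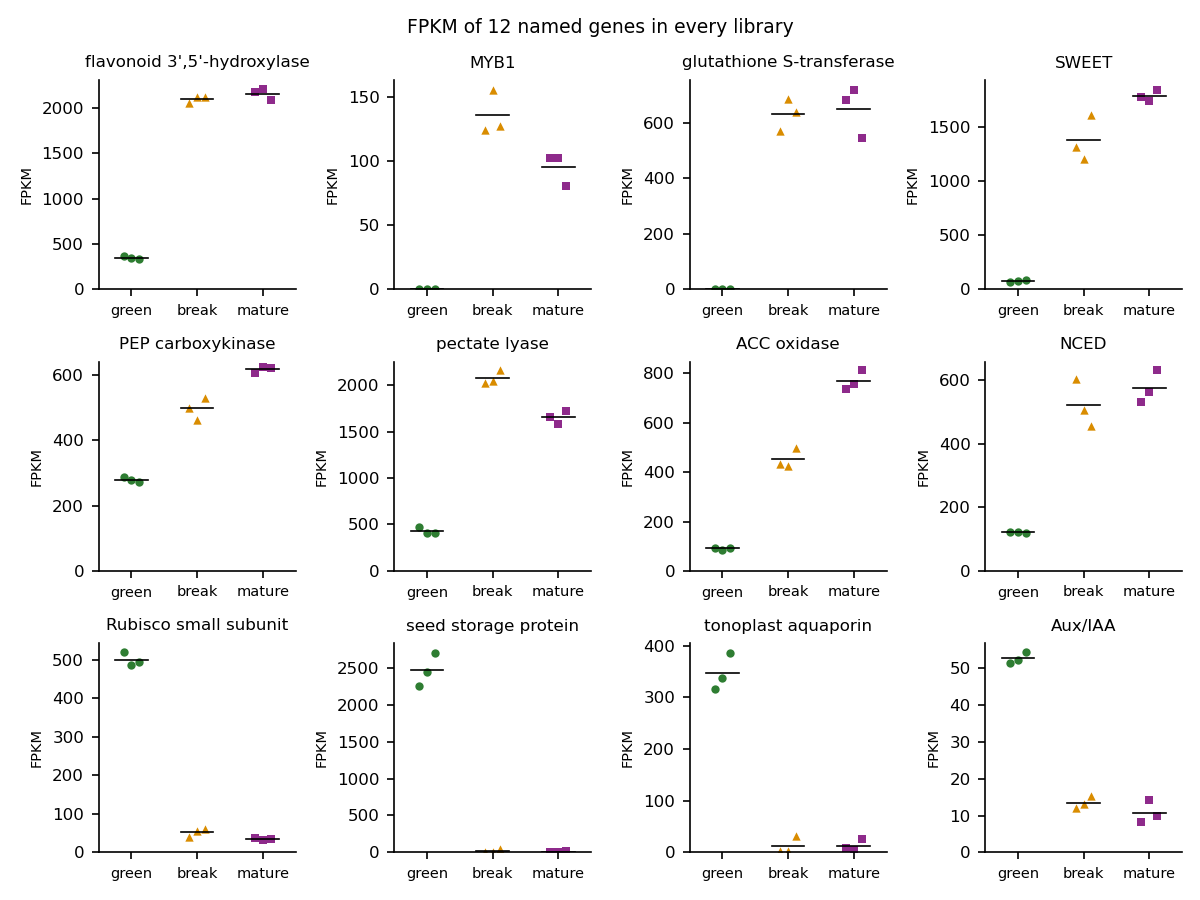
FPKM of 12 named genes in every library, with early green as circles, color break as triangles, mature as squares and the mean as a bar; every axis starts at 0. The SWEET gene stands at 70.2, 79.4 and 83.4 FPKM in green and 1775, 1736 and 1841 FPKM in mature libraries, while the Rubisco small subunit gene stands at 519, 487 and 494 and 37.7, 32.2 and 34.4 FPKM.

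Cell division genes mostly stayed below the entry limit. Of 93 cyclin, mitosis and MCM helicase genes listed, 13 were tested, of which 1 rose (2 without green replicate 1) and 2 fell (1 without green replicate 2 or mature replicate 1). Of the 13 genes 3 entered through the green and 1 through the mature libraries alone. The cyclin D3 gene VaccDscaff41-augustus-gene-39.28 fell from 1.81, 2.24 and 2.16 FPKM to 0.368, 0.278 and 0.207 FPKM (log2 change -2.58 ± 0.25, adjusted p = 5.09e-05). It entered through the green libraries alone and so had to differ. Core histones had 9 falls and no rise among 82 tested genes, which is 11% beside 15.8% of all genes; with library totals alone 21 fell, and 1 rose without green replicate 1. The histone H2A gene VaccDscaff17-snap-gene-46.49 fell (log2 change -1.72 ± 0.09, adjusted p = 1.42e-06).

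The lists of pathogenesis-related proteins and of heat shock proteins leaned in opposite directions. Defence genes did not rise in general: the KEGG pathway plant-pathogen interaction had 44 rises and 165 falls among 627 tested genes. Pathogenesis-related proteins rose in 13 and fell in 6 of 34 tested genes, of which 4 entered through the green and 3 through the mature libraries alone. At a mean of at least 5 FPKM 9 rose and 1 fell. Basic chitinase, which cuts fungal walls, summed to 2136 ± 96.7 FPKM in green and 4105 ± 34 FPKM in mature fruit, and VaccDscaff41-processed-gene-264.23 was at 667, 611 and 613 FPKM in green and 1325, 1270.2 and 1310.4 FPKM in mature libraries (log2 change 1.30 ± 0.04, adjusted p = 1.63e-07). The thaumatin-like gene VaccDscaff43-snap-gene-244.23 fell (log2 change -2.44 ± 0.22, adjusted p = 0.00014). Heat shock proteins and factors fell in 59 and rose in 10 of 126 tested genes, and summed to 3245, 3445 and 3631 FPKM in the green and 1067, 971 and 1516 FPKM in the mature libraries. Of the 126 genes 17 entered through the green and 4 through the mature libraries alone. At a mean of at least 5 FPKM 42 fell and 5 rose. Their most abundant faller, VaccDscaff26-processed-gene-137.16, a small heat shock protein gene, was at 596, 625 and 676 FPKM in green and 70.6, 35.5 and 189 FPKM in mature libraries (log2 change -2.43 ± 0.68, adjusted p = 0.0341). Mature replicate 3 was again the highest and replicate 2 the lowest, as in the sum of the seed storage fallers. Without green replicate 1, 2 or 3 or mature replicate 1 the call was lost (adjusted p = 0.0779 to 0.108). The part of seed RNA in this fall was not tested. Against this direction VaccDscaff2-processed-gene-307.31, annotated as HSP17.7, rose (log2 change 1.84 ± 0.10, adjusted p = 2.09e-06).

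Proteasome subunits, which degrade tagged proteins, shifted by less than the 2-fold limit. Of 165 tested genes 10 rose, 1 fell and 154 were not called, with a median log2 change of 0.55; with library totals alone 2 rose and 2 fell, and without mature replicate 2 the falls were 2. The most abundant riser was VaccDscaff24-snap-gene-42.49 (log2 change 1.01 ± 0.08, adjusted p = 1.99e-05), which was at 0.95 without green replicate 3 and 0.93 without mature replicate 1.

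The largest falls outside the lists among named proteins touched the cell surface and wall. Receptor-like protein 7, a type of plant surface receptor, fell in both named genes, VaccDscaff8-processed-gene-60.6 (log2 change -5.74 ± 0.24, adjusted p = 1.19e-06) and VaccDscaff4-processed-gene-117.6 (log2 change -4.50 ± 0.21, adjusted p = 7.66e-06). The latter was at 78.2, 87.6 and 66.6 FPKM in green and 3.36, 3.12 and 2.11 FPKM in mature libraries. Glucomannan 4-beta-mannosyltransferase, which builds a wall polysaccharide that is also a reserve in seeds, fell in VaccDscaff26-augustus-gene-226.16 (log2 change -4.52 ± 0.53, adjusted p = 0.000961) and VaccDscaff29-augustus-gene-218.19 (log2 change -4.49 ± 0.68, adjusted p = 0.00394). Both were lowest in mature replicate 2 and highest in replicate 3, as was the sum of the seed storage fallers. The part of seed RNA in these falls was not tested. Inositol oxygenase, which turns inositol into wall sugar precursors, fell in VaccDscaff34-augustus-gene-21.34 (log2 change -4.78 ± 0.31, adjusted p = 1.23e-05).

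The gene models that rose and fell were shorter, at a median length of 1591 and 1525 bases, than those not called (1722.5 bases), and had a median of 4 exons against 6. Single-exon models made up 13.6% of the rises, 13% of the falls and 7.41% of the genes not called. The median FPKM in the higher stage, a measure the entry rule also used, was 9.35 for rises, 3.42 for falls and 4.51 for genes not called. Over the 46 scaffolds with at least 500 tested genes, rises made up 6.07% to 12.3% and falls 11.9% to 20% of the genes, and no such scaffold was without calls.

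Many genes share a protein description, in 12611 groups of 2 to 6 tested genes. In 2832 of these groups at least 2 genes were called; in 991 groups all called genes rose, in 1777 all fell, and in 64 (2.26%) they went both ways. Reads of near-identical copies can be divided between them in ways the table does not show, so counts of genes in a family are counts of gene models, and copies of 1 group are not independent of each other.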

How the data were processed

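The data are mRNA-seq of blueberry fruit (Illumina Novaseq, per the labels' protocols), with 3 libraries per stage; the comparison uses 6 of them. Per the submitters' processing notes, fastp, HISAT2, StringTie and DESeq2 were used by the authors; the sources used here name no version, genome build or annotation. The labels' library protocol speaks of a Populus hybrid, while organism and gene names point to blueberry. The deposited table gives FPKM values per gene and estimated counts made by the authors. In each library over 98.6% of the deposited nonzero counts equal FPKM times length times a constant, rounded up, so they are estimated counts that are whole, not reads counted one by one. There were 0 value columns of no sample.

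The estimated counts were tested with edgeR 4.0.16 (R 4.3.3; TMM scaling, robust quasi-likelihood test, no covariates) on all 47084 genes with at least 1 FPKM in at least 3 of the 6 libraries, mature against green. P-values were adjusted by Benjamini-Hochberg over all of them, two-sided, and a call needed an adjusted p below 0.05 plus a 2-fold change in either direction. Errors of log2 changes are SE, those of FPKM are SD over 3 libraries. A stage with no count was given a floor of 3 counts per library, and this floor covers counting error only. DESeq2 1.42.0 and limma 3.58.1 served as alternatives, with other scalings, filters, a replicate block, and each library left out. The fitting code was tested on simulated data. Replicate numbers do not pair libraries of the stages.

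The gene lists, built from KEGG orthologs, GO terms and protein descriptions (those with "inhibitor" left out), and the comparison itself were chosen with earlier results of these data known. After the annotation was read, but from no value of this comparison, some orthologs were dropped, the beta-amyrin synthase GO term was added, plastid ribosomal proteins were taken by GO term, and wax and cutin lists by GO term were added. Named genes were, for each list, the called gene with the highest FPKM and no overlap between stages in the direction with more calls, and in the other direction where it had at least 3 calls; outside the lists, the 5 largest rises and falls among named proteins at 10 FPKM or more; and over all genes, the 5 most abundant rises and falls.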

Additional observations from a re-analysis of the deposited data

How the results depend on the processing

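The number of genes higher in mature fruit was 4361, and it was 2043 with copies of 1 protein description summed, 2339 with limma on log2(FPKM + 1), 1798 with a mean of at least 5 FPKM and 13690 with no fold threshold. The number lower was 7441, and it was 3700 with copies summed, 2250 with a mean of at least 5 FPKM, 12346 with no filter and 14433 with no fold threshold. Summing copies and the stricter filter test fewer features, no filter tests more, and no fold threshold drops a criterion; limma with the smaller pseudocount of 0.1 gave 3022 higher, and the cause of the limma difference was not tested. Leaving out each library in turn gave 4328 to 4442 higher and 7128 to 7636 lower. With DESeq2 the counts were 4482 and 7386, and with library totals alone 2997 and 10051. The correlation of deviations of same-numbered green and mature libraries was 0.000852, 0.000578 and 0.0329, so the numbers do not pair them; with the replicate block 4366 genes were higher and 7459 lower.

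Of 79 named genes 68 were called under every alternative that gave a value, 11 were not under some, and none reversed. Of 90 list counts 2 stayed within 1.5 times under every alternative. Apart from summed copies, no filter, the stricter filter and no fold threshold, 15 alternatives remained. Under all 15, 27 of the 36 list counts of at least 10 stayed within 1.5 times. Of the list medians 18 changed sign under some alternative; the cause was not tested. The depth sets a floor of 3 counts, or 0.0532 to 0.0567 CPM.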

Other observations

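KEGG pathways outside the lists gave further groups; among 249 pathways with at least 20 tested genes these were chosen after their values were seen. The shikimate route to phenylalanine, tyrosine and tryptophan, which feeds the phenylpropanoid pathway, had 68 rises and 8 falls among 130 tested genes (median log2 change 1.11). The TCA cycle, the core of respiration, had 71 rises and no fall among 156 genes (median 0.97), and it shares citrate and malate enzymes with the organic acid list. Zeatin biosynthesis, the cytokinin route, had 18 rises and 2 falls among 36 genes (median 1.02).

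Linoleic acid metabolism, which includes lipoxygenases, had 1 rise and 16 falls among 35 genes (median -0.89). Brassinosteroid biosynthesis, a growth hormone route, had no rise and 9 falls among 21 genes (median -0.77). ABC transporters, which export many compounds including wax, had 17 rises and 38 falls among 115 genes, and plant-pathogen interaction had 44 rises and 165 falls among 627. All tested genes had 9.26% rises and 15.8% falls.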
